A study of Mus musculus with 10 samples.

Results

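The 49 genes named Psma, Psmb, Psmc, Psmd, Psme, Psmf or Psmg with a number, the genes of the proteasome subunits, its regulators and its assembly chaperones, were taken by gene symbol from the 26378 named genes of the RNA-seq table. Pseudogenes and 7 names with other suffixes were left out. Of the 49, Psmb8, Psmb9, Psmb10, Psme1 and Psme2 are the immunoproteasome genes, and the other 44 are called the constitutive rest. RNA came from subcutaneous WEHI-164 tumors, grafts of a single fibrosarcoma cell line, in wild-type female BALB/c mice. All 10 tumors were untreated when they were sampled at partial resection, and each mouse then received the poly(I:C)-loaded hydrogel on the tumor that was left. Poly(I:C) is a synthetic double-stranded RNA that activates Toll-like receptor 3. The 5 responders (tumors 5, 9, 10, 11 and 12) later regressed completely, and in the 5 non-responders (tumors 1, 2, 3, 6 and 7) the treatment did not delay growth. The labels give neither an age nor a sequencing batch, and the study's methods give 1 age range, that of young adult mice, for all its mice. Libraries held 16002949 (responder 9) to 31160790 (responder 11) estimated counts in responders and 19863863 to 28276142 in non-responders. The comparison asks whether tumors that would respond differed before treatment.

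The proteasome is the barrel-shaped protease that degrades ubiquitin-tagged proteins. Its 20S core is built of alpha and beta rings, and Psmb5, Psmb6 and Psmb7 encode the beta subunits that cut proteins. Cells exposed to interferon gamma, and many leukocytes at rest, build Psmb8, Psmb9 and Psmb10 into new cores in their place, which makes the immunoproteasome and favors peptides that fit MHC class I. The 19S cap recognizes and unfolds substrates, while the PA28 ring of Psme1 and Psme2 opens the core without using ubiquitin.

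Promoter sequences are shown for the 5 immunoproteasome genes, which shared their highest tumor and their 2 lowest, and for 2 of their constitutive counterparts. RefSeq (GRCm38.p6) windows from 250 bases before to 50 bases after a start were found for 41 of the 49 genes. They were searched on both strands for GAAA and GAAA with any 2 bases between (the letters of an interferon-stimulated response element), TTCNNNGAA (a gamma-activated sequence), TGACNNNGC (an antioxidant response element), CCAAT and GGGCGG (a GC box), and matches of different motifs may overlap. Capitals mark matches on either strand, and sequences run 5′ to 3′ on the gene's strand. For Psmb8, Psmb9 and Psme1 only the 30 bases around a match are shown, and for the others bases outside every exon of GENCODE vM21. Those 30 bases lie inside the GENCODE bounds of Psmb8, Psmb9 and Psme1, which begin farther upstream than the RefSeq starts used here.
Psmb8, chr17:34198088-34198117, plus strand: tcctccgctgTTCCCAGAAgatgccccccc
Psmb9, chr17:34187321-34187350, minus strand: gcgcagccgctgATTGGaaagccgagcccc
Psmb10, chr8:105938445-105938642, minus strand: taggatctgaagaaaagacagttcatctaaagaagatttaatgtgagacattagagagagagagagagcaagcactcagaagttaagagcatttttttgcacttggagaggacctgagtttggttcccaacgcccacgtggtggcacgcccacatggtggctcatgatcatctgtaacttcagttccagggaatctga
Psme1, chr14:55578493-55578522, plus strand: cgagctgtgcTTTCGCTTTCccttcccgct
Psme2, chr14:55591114-55591313, minus strand: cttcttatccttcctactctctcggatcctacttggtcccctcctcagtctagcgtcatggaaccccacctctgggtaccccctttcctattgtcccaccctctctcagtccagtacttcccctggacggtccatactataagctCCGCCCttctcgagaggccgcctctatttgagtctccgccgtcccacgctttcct
Psmb5, chr14:54618023-54618222, minus strand: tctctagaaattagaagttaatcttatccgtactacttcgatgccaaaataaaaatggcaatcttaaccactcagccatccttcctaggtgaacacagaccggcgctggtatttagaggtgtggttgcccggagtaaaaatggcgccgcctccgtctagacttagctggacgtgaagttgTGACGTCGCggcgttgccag
Psmb6, chr11:70525157-70525356, plus strand: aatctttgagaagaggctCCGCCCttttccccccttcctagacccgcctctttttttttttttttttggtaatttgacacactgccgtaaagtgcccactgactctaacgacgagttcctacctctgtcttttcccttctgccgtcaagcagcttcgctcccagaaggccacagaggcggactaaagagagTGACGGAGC
The stretch of Psmb8 holds a gamma-activated sequence match 97 bases before its RefSeq start. That of Psme1 holds an interferon-stimulated response element match just after its RefSeq start. The first of these motifs is in 8.30% of the 32851 mouse promoter windows searched and in 3 of the 41 genes (Psmb8, Psmd2 and Psmg1), and the second in 3.44% of windows and in 5 genes (Psmb3, Psmd4, Psmd9, Psme1 and Psmg4). Antioxidant response element letters were in 12.4% of windows and in 6 of the 41 genes, Psmb5 and Psmb6 among them and none of the immunoproteasome genes. CCAAT was in 37.4% of windows and 14 genes, and the GC box in 35.7% of windows and 23 genes. The window of Psmb10 held none of the 5 motifs. A match describes letters in a window and is not evidence of binding.

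In responders, all 5 immunoproteasome genes had a higher mean, while the constitutive genes were nearly level between the groups. The median log2 fold change, responders over non-responders, was 0.22 for the 5 immunoproteasome genes and 0.014 for the 43 constitutive genes that passed the filter on low counts, against 0.0010 over all 14944 genes tested. None of the 48 proteasome genes tested passed an adjusted p of 0.05 in edgeR's quasi-likelihood test, and none of the 14944 genes did (0% called). The smallest adjusted p was 0.567 among the proteasome genes and 0.555 among all genes. DESeq2 called 1 gene of all tested. At an unadjusted p under 0.05 there were 4 proteasome genes, 8.33% of the 48, against 8.36% of all genes (1250) in either direction. All 4 were higher in responders, where the share over all genes was 4.75%, and 0 were lower, against 3.61%. They were Psmg4, Psmb9, Psme2 and Psmb10, so 3 of the 5 immunoproteasome genes and 1 of the 43 others. Since no gene passed the adjusted test, the values that follow describe these tumors.

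Psmb9 encodes the inducible subunit that takes the place of Psmb6. It lies on chromosome 17 (34181987-34187764, minus strand, GRCm38), and its exons overlap those of Tap1 on the opposite strand. Its level in CPM (estimated counts scaled to equal library size by TMM) was 168, 199, 167, 224 and 187 in responders 5, 9, 10, 11 and 12. In non-responders 1, 2, 3, 6 and 7 it was 148, 128, 193, 163 and 134. Of the non-responders 4 lay below every responder, and non-responder 3 lay above 3 of them. The means were 189 ± 23.7 and 153 ± 26.0 CPM (SD, n = 5 each). On the log2 scale responders were higher by 0.30 (SE 0.11), with an unadjusted p of 0.0162 and an adjusted p of 0.567 in edgeR.

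Psmb10, which takes the place of Psmb7, lies on chromosome 8 (105935735-105938444, minus strand). Responders 5, 9, 10, 11 and 12 had 126, 137, 124, 176 and 123 CPM, and non-responders 1, 2, 3, 6 and 7 had 111, 95.0, 141, 127 and 97.7 CPM. The groups overlapped, with responder 11 far above the rest and non-responder 3 second of all 10. Its log2 fold change was 0.26 (SE 0.12; edgeR unadjusted p = 0.0479, adjusted p = 0.593), and 0.15 without responder 11.

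Psmb8 takes the place of Psmb5 and lies on chromosome 17 (34197721-34201454, plus strand). It was the most abundant of the inducible genes, also per length, with 185 CPM per kilobase of transcript against 126 for Psmb9 and 95.9 for Psmb10. Responders had 283, 329, 289, 376 and 320 CPM in the same tumor order and non-responders had 267, 246, 340, 317 and 246. Responder 11 was again highest, non-responder 3 second, and non-responders 2 and 7 lowest. The log2 fold change was 0.18 (SE 0.10; edgeR adjusted p = 0.671), and its 95% interval, from -0.045 to 0.39, includes 0.

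In the PA28 genes, too, responder 11 was highest and non-responders 2 and 7 were lowest. Psme1 (chromosome 14, 55578123-55581529, plus strand) encodes the alpha subunit, and its level was 167, 174, 167, 218 and 176 CPM in responders against 152, 141, 177, 181 and 141 CPM in non-responders. Psme2 (chromosome 14, 55587441-55591113, minus strand) encodes the beta subunit, and its level was 169, 191, 175, 215 and 180 CPM in responders against 156, 140, 184, 171 and 148 CPM in non-responders. Both overlapped between the groups, since non-responders 3 and 6 lay above 4 of the 5 responders for Psme1, and non-responder 3 above 3 of them for Psme2. The log2 fold change of Psme1 was 0.19 (SE 0.09; edgeR adjusted p = 0.611) and that of Psme2 was 0.22 (SE 0.08; edgeR adjusted p = 0.567). Of the 31-base words of Psme2, 33.5% also occur in other genes, most of all in Psme2b. The estimated counts of Psme2 may therefore carry an assignment error. On the opposite strand, exons of Emc9 overlap those of Psme1, and exons of the antisense gene Gm20496 those of Psmb8.

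**Figure D1:**
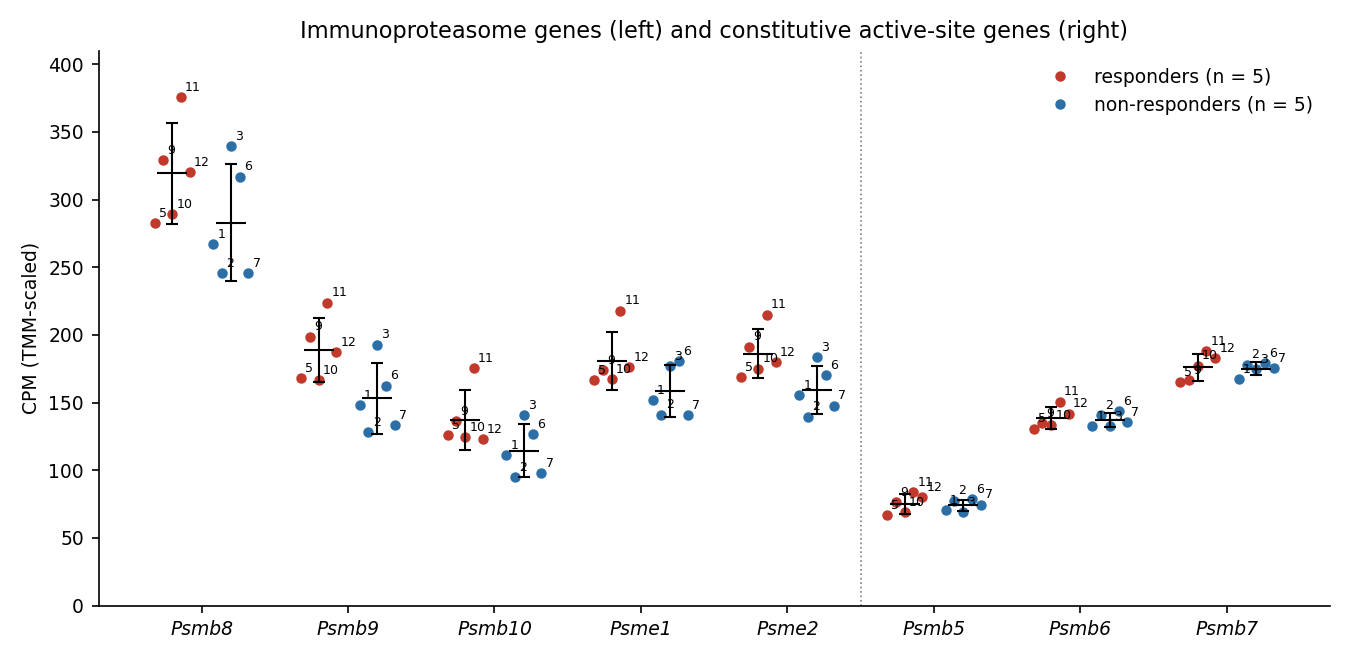
CPM of the 5 immunoproteasome genes and the 3 constitutive active-site genes in each tumor (number beside the point), with group mean ± SD (n = 5 each). Responder 11 is highest in all 5 immunoproteasome genes, non-responders 2 and 7 are lowest, and the constitutive genes lie level between the groups.

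The size of this difference depended on single tumors. Responder 11 was the highest of the 10 in all 5 immunoproteasome genes, and in 22 of the 43 constitutive genes as well. Non-responders 2 and 7 were the lowest 2 in all 5. Without responder 11, the median log2 fold change of the 5 genes was 0.15 and 0 of them had an unadjusted p under 0.05. Without non-responder 3, the median of the 5 genes was 0.28 and all 5 had such a p. Over all genes, the share higher in responders at that p was 2.76% without responder 11 and 5.20% without non-responder 3, beside 4.75% with all tumors. The median of the 43 constitutive genes was -0.020 without responder 11, below 0, and also lay just below 0 without non-responder 1, at -0.0030. Each of the 5 immunoproteasome genes kept its sign in the fits that left out 1 tumor, between 0.11 (Psmb8 and Psme1 without responder 11) and 0.40 (Psmb9 without non-responder 3).

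The constitutive counterparts had nearly equal means. Psmb6 had 131, 135, 133, 151 and 142 CPM in responders against 132, 141, 133, 144 and 135 CPM in non-responders. Its log2 fold change was 0.014, with a 95% interval from -0.088 to 0.12. For Psmb7 the level was 165, 167, 177, 188 and 183 CPM in responders against 167, 178, 175, 179 and 176 CPM in non-responders, with a log2 fold change of 0.0080 (interval -0.090 to 0.11). Psmb5 had 66.8, 76.6, 69.0, 83.9 and 80.4 CPM in responders against 70.6, 77.6, 69.0, 78.5 and 74.6 CPM in non-responders, with a log2 fold change of 0.025 (interval -0.12 to 0.17). The groups overlapped widely in all 3, and without responder 11 all 3 differences turned negative, to -0.023 for Psmb6, -0.020 for Psmb7 and -0.021 for Psmb5. Psmb5 shares 71.7% of its 31-base words with other genes, most of all with Gm3375. That processed pseudogene held 256 to 620 estimated counts per tumor.

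The ratio of an inducible gene to its counterpart within a tumor does not depend on scaling between libraries. For Psmb9 over Psmb6, the log2 ratio of CPM was 0.36, 0.56, 0.32, 0.57 and 0.40 in responders and 0.16, -0.14, 0.54, 0.18 and -0.020 in non-responders. Of the non-responders, 4 of 5 were below every responder, and the means, 0.44 ± 0.11 and 0.14 ± 0.26, differed by 0.30. Psmb10 over Psmb7 had log2 ratios of -0.39, -0.29, -0.51, -0.096 and -0.57 in responders and -0.59, -0.91, -0.31, -0.50 and -0.85 in non-responders, a difference of means of 0.26. Psmb8 over Psmb5 was 2.08, 2.10, 2.07, 2.16 and 2.0 in responders and 1.92, 1.66, 2.30, 2.01 and 1.72 in non-responders. Its means differed by 0.16, and the highest value of all was that of non-responder 3. Responders spread less than non-responders in all 3 ratios, with SDs of 0.11, 0.19 and 0.060 against 0.26, 0.25 and 0.25. Per length, the inducible genes made up 50.8% ± 1.95 of the 6 active-site transcripts in responders and 46.9% ± 4.18 in non-responders (SD, n = 5 each). By this share 4 non-responders lay below every responder, but only 1 responder lay above non-responder 3, at 52.9%. The counts of Gm3375 were not added to Psmb5 in this share. The ratios and the share were not given a test of their own.

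**Figure D2:**
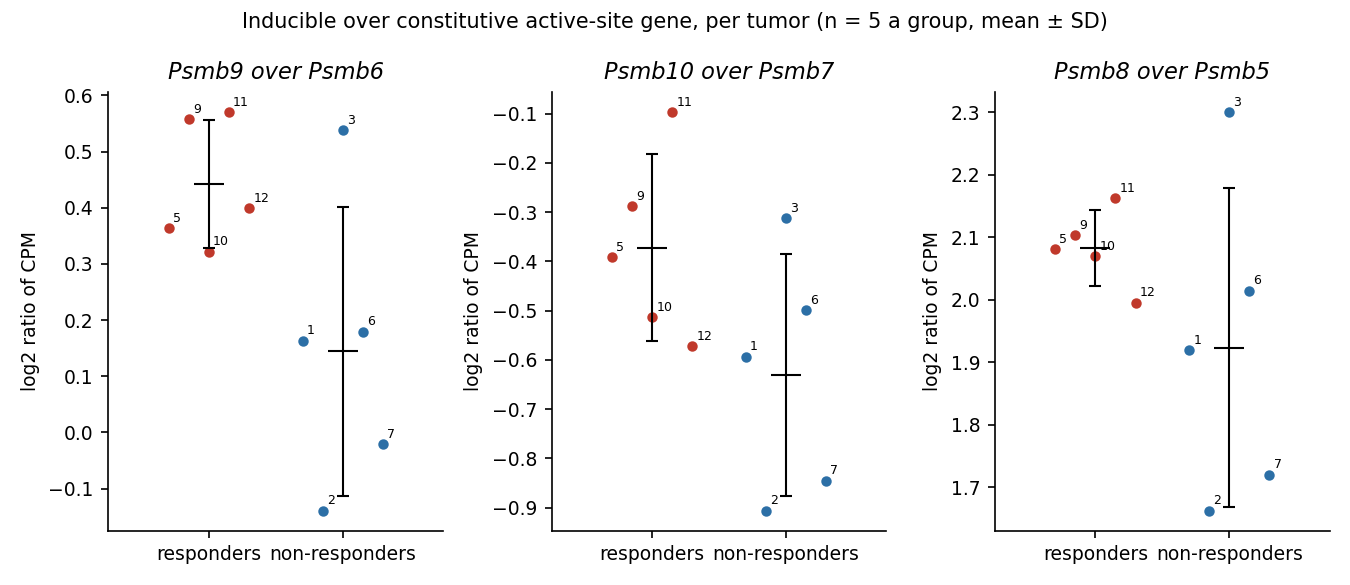
Log2 ratio of CPM of each inducible gene to its constitutive counterpart in every tumor (tumor number beside the point), with group mean ± SD (n = 5 each). Non-responders 2 and 7 are at the bottom of each panel and non-responder 3 is among or above the responders.

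The other genes of the 20S core differed little between the groups. Per length, the 14 constitutive core genes ranged from 41.1 (Psma2) to 228 (Psma7) CPM per kilobase over all tumors. All 7 tested alpha ring genes had a higher mean in responders, by 0.0076 to 0.11 on the log2 scale, against 50.3% of all genes. None of the 7 had an unadjusted p under 0.05, against 8.36% of all genes. Psma3, an alpha subunit, was the one with the largest difference, at 117, 131, 129, 147 and 126 CPM in responders against 120, 125, 122, 121 and 114 CPM in non-responders (log2 fold change 0.11, edgeR adjusted p = 0.626). Of the responders, 4 lay above all non-responders, but responder 5 lay near the bottom. Without responder 11 the log2 fold change of Psma3 was 0.055. Psma8, the testis form of the alpha ring, had 1 to 11 counts per tumor and did not pass the filter. The constitutive beta ring gave the same picture, with all 7 means higher by 0.0076 to 0.094, again against 50.3% of all genes. Without responder 11 the differences of Psmb5, Psmb6 and Psmb7 turned negative, as given above. Its most different gene was the structural subunit Psmb2, with 108, 109, 112, 132 and 120 CPM in responders against 106, 109, 103, 117 and 109 CPM in non-responders (edgeR adjusted p = 0.692). Without responder 11 its log2 fold change was 0.041. Psmb11, the subunit of the thymus, was close to absent at 7 to 19 counts per tumor, and its log2 fold change of 0.60 (SE 0.28; edgeR adjusted p = 0.600) rests on those few counts.

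In the 19S cap, 3 of 6 ATPase genes and 4 of 11 non-ATPase genes had a higher mean in responders, against 50.3% of all genes, and 0 of the 17 had an unadjusted p under 0.05, against 8.36% of all genes. Psmd8, a lid subunit, had 121, 129, 132, 146 and 131 CPM in responders against 123, 133, 123, 125 and 113 CPM in non-responders (log2 fold change 0.096, edgeR adjusted p = 0.669; 0.053 for the fold change without responder 11). Psmd6, Psmd1 and Psmd11 were lower on average, with log2 fold changes of -0.072, -0.050 and -0.055 and edgeR adjusted p of 0.687, 0.786 and 0.796. The log2 fold change of Psmd11 was -0.032 without responder 9 and -0.090 without responder 11. Psmd6 and Psmd11 encode lid subunits, and Psmd1 the largest base subunit. Psmd1, at 260, 257, 260, 271 and 263 CPM in responders, lay inside the range of non-responders, 250 to 290 CPM. The chaperones that assemble the cap, Psmd5, Psmd9 and Psmd10, had log2 fold changes of -0.019, 0.0076 and 0.11.

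Among the other activators, Psme3, the PA28 gamma ring of the nucleus, was lower on average in responders, at 200, 165, 191, 196 and 174 CPM against 202, 192, 191, 225 and 197 CPM. Its log2 fold change was -0.12 (SE 0.06; edgeR unadjusted p = 0.0683, adjusted p = 0.619), opposite in sign to the alpha and beta genes. Psme4, which encodes the activator PA200, had 157, 155, 151, 142 and 160 CPM in responders against 159, 161, 160, 157 and 166 CPM in non-responders (log2 fold change -0.072, edgeR adjusted p = 0.671). Both sets of values overlapped between the groups. Without responder 11, Psme3 and Psmd6 were the 2 of 48 proteasome genes with an unadjusted p under 0.05, both lower in responders, against 2.75% of all genes lower at that p in the same fit. Psme2b shares 78.4% of its words with other genes, most of all with Psme2, and is uncertain. The inhibitor gene Psmf1 had a log2 fold change of -0.017.

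Psmg4, a chaperone that helps assemble the alpha ring, had the smallest p of all 48 genes. Responders had 17.3, 18.7, 17.4, 20.3 and 18.1 CPM and non-responders 15.0, 16.5, 16.6, 17.2 and 15.8 CPM. It was the only one of the 48 in which every responder lay above every non-responder, against 0.408% of all genes, and the gap between responder 5 and non-responder 6 was narrow. In 0 of the 48 was every responder below every non-responder, against 0.475% of all genes. The log2 fold change was 0.18 (SE 0.07; edgeR unadjusted p = 0.0156, adjusted p = 0.567), and between 0.14 and 0.20 in the fits that left out 1 tumor. The other chaperones of its group, Psmg1, Psmg2 and Psmg3, had log2 fold changes of 0.050, -0.059 and -0.067.

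**Figure D3:**
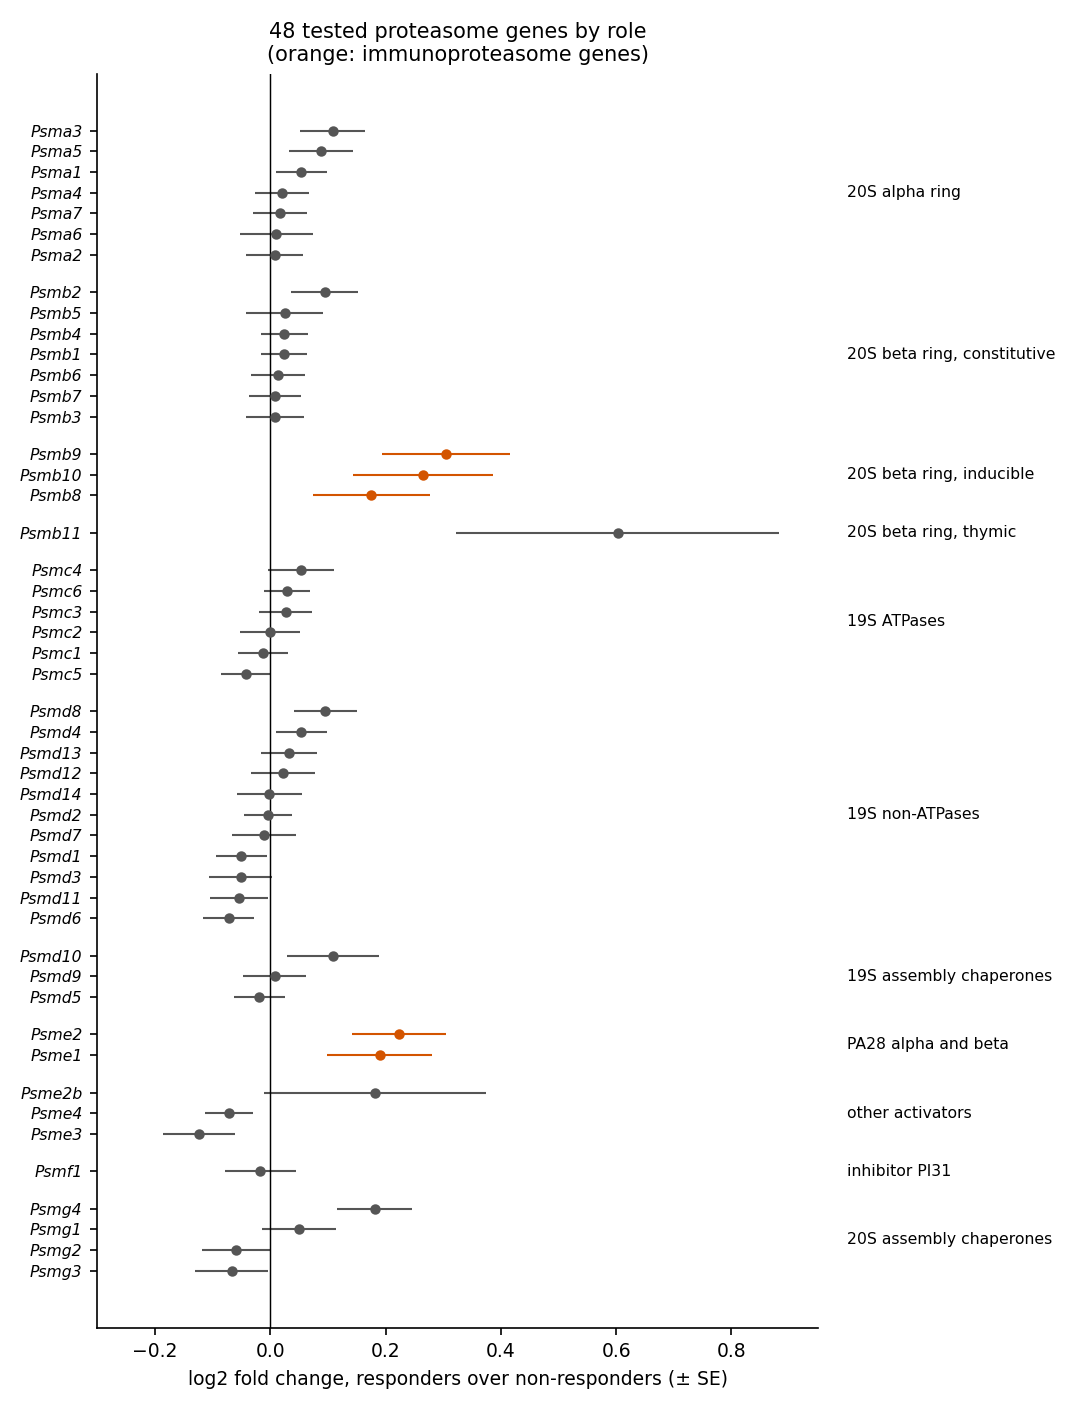
Log2 fold change, responders over non-responders, of the 48 tested proteasome genes by role, with bars of ± 1 SE from edgeR. The 5 immunoproteasome genes (orange) lie to the right of 0, while 37 of the 43 others lie within 0.1 of it.

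The immunoproteasome genes also varied more between tumors than the constitutive rest. The coefficient of variation of CPM over the 10 tumors was 12.7% to 18.4% in the 5 genes, with a median of 14.1%. It was 5.41% in the median constitutive gene and 9.17% in the median of all genes tested. Lists described below had medians near that of the 5 genes. These were 11.9% for class I peptide loading, 15.9% for interferon gamma signaling and 15.0% for leukocyte markers. Only 2 of the 43 constitutive genes varied more than the 5, the low-count genes Psmb11 and Psme2b. In the constitutive rest, 37 of 43 had an absolute log2 fold change under 0.1, as did 62.3% of all genes. Responder 11 was highest in 22 of them, non-responder 6 in 12, and responder 5 lowest in 13.

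**Figure D4:**
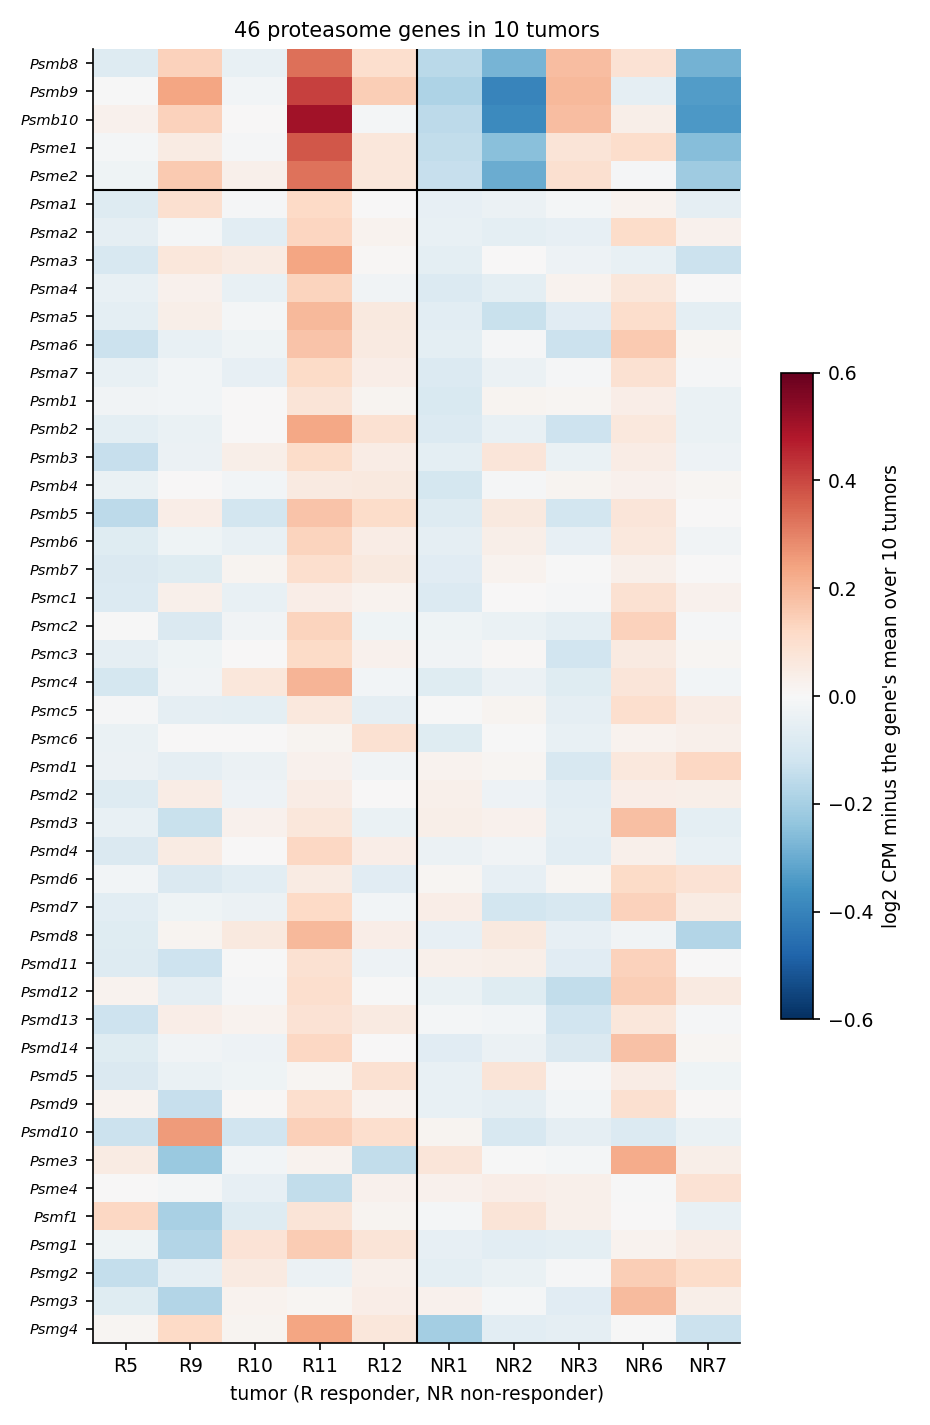
Log2 CPM of 46 proteasome genes minus each gene's mean over the 10 tumors (columns; R responder, NR non-responder), without Psma8, which was not tested, and the low-count genes Psmb11 and Psme2b. The top block of 5 immunoproteasome genes is red in R11 and blue in NR2 and NR7, and the block below is pale in most tumors.

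The genes that work with the proteasome were described by lists. Over all genes tested, 4.75% were higher and 3.61% lower in responders at an unadjusted p under 0.05, and 50.3% had a higher mean. Of 13 proteasome genes of other names that were found, 0 were higher and 1 was lower at an unadjusted p under 0.05. That gene was Ubqln2, a shuttle that brings ubiquitin-tagged proteins to the proteasome, with means of 102 ± 5.57 and 116 ± 7.89 CPM in responders and non-responders (log2 fold change -0.19, edgeR adjusted p = 0.555). Its relative Ubqln4 had a log2 fold change of -0.11 and the core chaperone Pomp 0.037. Of 7 ubiquitin and FAT10 genes, only Ubd was past that p. Ubd encodes FAT10, a ubiquitin-like modifier that also targets proteins to the proteasome, and it had 34.6 ± 9.36 CPM in responders against 21.0 ± 6.11 CPM in non-responders (log2 fold change 0.73, SE 0.21, edgeR adjusted p = 0.555). The ubiquitin gene Ubb had a log2 fold change of 0.091, Rps27a of -0.013 and the activating enzyme Uba6 of -0.025.

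Among 5 genes that control proteasome transcription, 1 was past that p. Nfe2l2, the transcription factor of the oxidative stress response, had 180 ± 5.71 CPM in responders and 166 ± 9.63 CPM in the others (log2 fold change 0.12, edgeR adjusted p = 0.573). Nfe2l1, the factor that raises proteasome genes when the proteasome is inhibited, had a log2 fold change of -0.062, its processing enzyme Ngly1 of 0.042 and the unfoldase Vcp of -0.022. Without responder 5 the log2 fold change of Nfe2l1 was -0.096. In the class I peptide loading list 11 of 12 genes had a higher mean in responders, against 50.3% of all genes, and 5 of them had an unadjusted p under 0.05, against 4.75%. Their median log2 fold change was 0.18. Nlrc5, the transactivator of class I genes, had the largest log2 fold change of the list at 0.30 (SE 0.12; edgeR adjusted p = 0.573), followed by the loading factor Tapbpl at 0.29, while the chaperone Canx was at -0.020. In the interferon gamma list 10 of 10 had a higher mean, 6 at an unadjusted p under 0.05, beside the same 50.3% and 4.75% of all genes, and the median log2 fold change was 0.24. The transcription factors named from this list were Irf8, with 98.0 ± 16.8 and 71.6 ± 13.9 CPM (log2 fold change 0.46, edgeR adjusted p = 0.555), and Irf1, with 379 ± 42.0 and 284 ± 73.3 CPM (0.42, edgeR adjusted p = 0.555).

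Across the 10 tumors, Psmb9 was set against 5 genes on the log2(CPM + 1) scale, of which 4 are given here. Pearson's r was 0.967 with Irf1, with a permutation p of 1e-05, the smallest that the permutations can give (adjusted over the 5 relations, 2.5e-05). Spearman's rho was 0.976 with Irf1 (permutation p = 2e-05, adjusted p = 5e-05). With Tap1, the peptide transporter gene whose exons overlap those of Psmb9, r was 0.933 (permutation p = 9e-05, adjusted p = 0.00015) and rho 0.952 (permutation p = 5e-05). Whether reads were assigned by strand is not given in the sources used here. Ifng, the gene of interferon gamma, gave r = 0.858 (permutation p = 0.00176, adjusted p = 0.00220) and rho = 0.733 (permutation p = 0.0210). Ptprc, the pan-leukocyte gene CD45, gave r = 0.846 (permutation p = 0.00271, also after adjustment) and rho = 0.794 (permutation p = 0.00915). Without responder 11 and non-responder 2, the tumors farthest from the median of Psmb9, r was 0.984 with Irf1 and 0.922 with Tap1. In those 8 tumors r was 0.652 with Ifng (exact permutation adjusted p = 0.0779) and 0.707 with Ptprc (exact permutation adjusted p = 0.0635), so neither passed 0.05 without both outer tumors. Without responder 11 alone r was 0.785 with Ifng and 0.797 with Ptprc, and without non-responder 2 alone 0.793 and 0.786, with exact permutation adjusted p of 0.0118 to 0.0129. Spearman's rho with Ifng was 0.633 on leaving out responder 9, responder 11, non-responder 2 or non-responder 7 alone (exact permutation adjusted p = 0.0760 each), and did not pass 0.05 there. On deviations from the group means, r was 0.944 with Irf1, 0.898 with Tap1, 0.758 with Ifng and 0.796 with Ptprc.

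**Figure D5:**
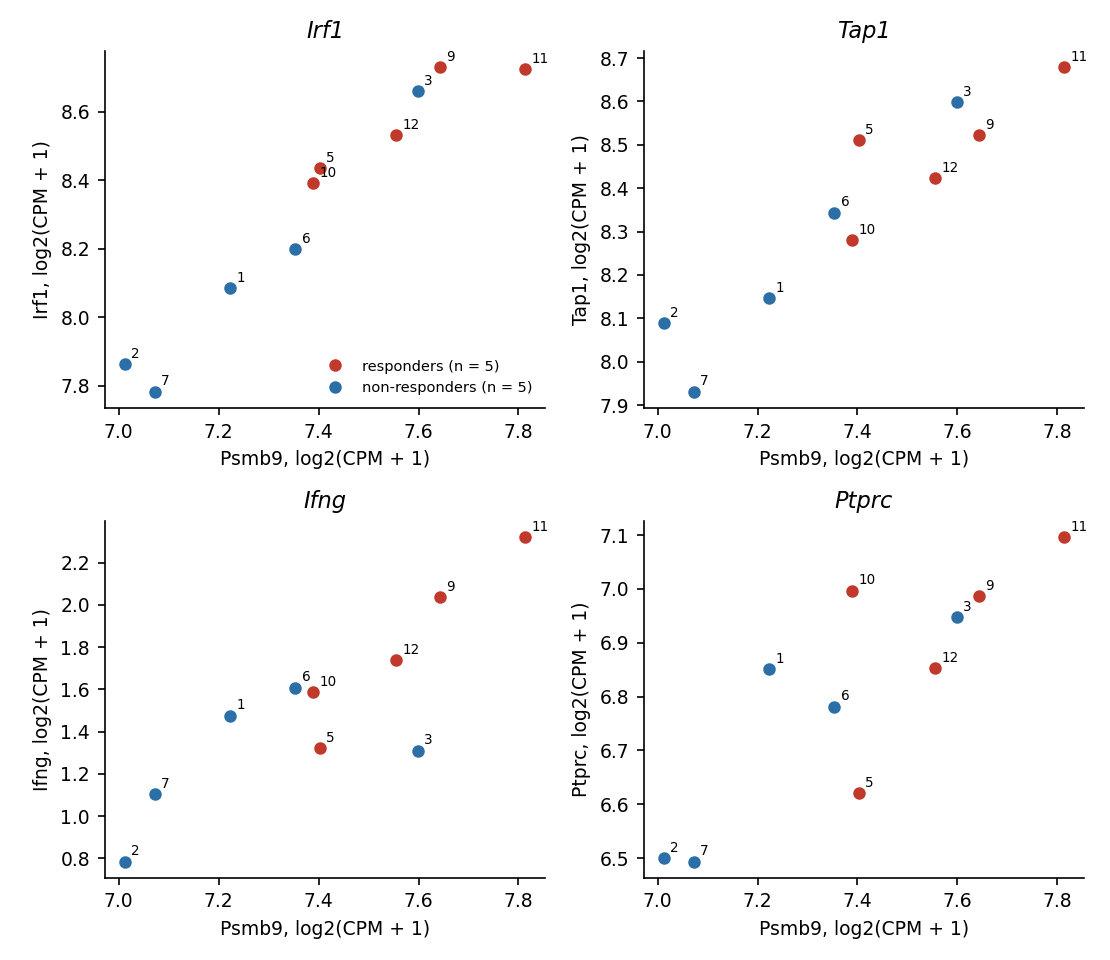
Psmb9 (x axis) against Irf1, Tap1, Ifng and Ptprc (y axes) in the 10 tumors, all as log2(CPM + 1), with the tumor number beside each point. Non-responders 2 and 7 lie at the low end in all 4 panels, and non-responder 3 lies among the responders except for Ifng, where it is just below the lowest of them.

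Leukocyte genes were high and low in some of the same tumors. In bulk tumors fewer cells of a type and less RNA per cell cannot be told apart. The 8 leukocyte markers, all detected and led by Lcp1, summed to 886, 1052, 1062, 1203 and 978 CPM in responders against 1010, 843, 962, 927 and 781 CPM in non-responders. All 8 had a higher mean in responders, 4 at an unadjusted p under 0.05, against 4.75% of all genes. Responder 11 was highest and non-responders 7 and 2 lowest, the same tumors as for the immunoproteasome genes. By the median of the 5 immunoproteasome genes non-responder 3 was second of all 10, but for leukocyte markers it lay in the middle, while responder 10 and non-responder 1 ranked higher for leukocyte markers than for the immunoproteasome genes. Natural killer cell markers, led by Prf1 and with Klra8 at 0 in all tumors, summed to 27.9, 74.9, 77.3, 113 and 73.6 CPM in responders against 50.5, 24.1, 36.6, 41.4 and 26.7 CPM in non-responders, and all 6 of the 8 that passed the filter were higher at an unadjusted p under 0.05, against 4.75% of all genes. T cell markers, 9 of 10 found and led by Lck, had sums of 22.5, 52.9, 53.8, 64.5 and 43.0 CPM in responders against 51.4, 22.6, 32.1, 36.7 and 29.0 CPM in non-responders, and 1 of the 9 was higher at that p. Macrophage markers, 8 of 8 detected and led by Lyz2, had sums of 2268, 2822, 2851, 2839 and 2313 CPM in responders against 2794, 2326, 2515, 2165 and 2082 CPM in non-responders, and 0 of the 8 had an unadjusted p under 0.05. Responder 5 was the lowest responder in all 4 of these lists. The part of these cells in the immunoproteasome levels was not tested.

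Other cell types gave the following sums as group means of responders and non-responders. Fibroblast and fibrosarcoma markers, 8 of 8 detected and led by Vim, had 10791 and 11359 CPM. This list does not separate the tumor cells from fibroblasts of the host. Dendritic cell markers, led by Itgax at a mean of 45.5 CPM over all tumors, had 58.6 and 63.8 CPM. Itgax had a lower mean in responders, 42.3 against 48.6 CPM, while 4 of the 7 dendritic cell markers had a higher one. Neutrophil markers, led by Csf3r at a mean of 20.4 CPM, had 33.9 and 22.1 CPM, and B cell markers 1.83 and 1.91 CPM. Endothelial markers had 151 and 164 CPM and muscle markers 114 and 154 CPM. Adipocyte markers, led by Fabp4 at a mean of 21.7 CPM, had 38.3 and 38.1 CPM. Keratinocyte markers had 17.2 and 17.4 CPM, led by Dsp at a mean of 13.9 CPM over all tumors. Krt1 was at 0 in all tumors, and Krt5 and Krt14 did not pass the filter. At an unadjusted p under 0.05, 2 of the 5 neutrophil markers that passed the filter and 1 of 7 dendritic cell markers were higher in responders, against 4.75% of all genes. The neutrophil sum was highest in responder 11, at 51.7 CPM. At the same p, 2 of 8 fibroblast and fibrosarcoma markers, 2 of 5 endothelial markers and 1 of 6 muscle markers were lower in responders, against 3.61% of all genes. None of the 3 B cell, 5 adipocyte and 2 keratinocyte markers that passed the filter had an unadjusted p under 0.05. The part of these tissues in the proteasome values was not tested either.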

How the data were processed

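RNA of 10 tumors was sequenced, 5 of responders and 5 of non-responders. Per the labels and the study's methods, the authors estimated transcript abundances with kallisto on GRCm38 and deposited estimated counts per gene, not normalized. The annotation release and strand setting are not given in the sources used here. Of 36009 rows, 9580 without a gene name (1.31% of counts) were left out and 44 names on more than 1 row were summed. Estimated counts were rounded to whole numbers, and the 14944 genes that exceeded a CPM of 0.366 in 3 or more tumors entered a fit in edgeR 4.0.16 (TMM scaling, quasi-likelihood test, Benjamini-Hochberg adjustment over all genes, threshold 0.05) in R 4.3.3. Where the text gives an unadjusted p it is from the same fit. A standard error is a gene's log2 fold change divided by the root of edgeR's F, and 95% intervals use its degrees of freedom. The edgeR step was tested on simulated data. The biological coefficient of variation between tumors was 10.1%, and counting error adds to it for genes of few counts.

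No tumor number occurs in both groups, and no pairing was used. Each tumor is taken as a separate mouse. No 2 tumors were near-copies of each other. The proteasome genes, the other lists and the markers were chosen with earlier results of these data known. Genes named in the text are the 5 immunoproteasome and 3 constitutive active-site genes, of the other proteasome genes the 5 of smallest p among those higher and among those lower, those under the filter, and in each related list 2 of each kind. Psmd10, Psmd5, Psmd9, Psme2b, Psmf1, Psmg1, Psmg2 and Psmg3 are named outside this rule to complete their roles. Psma2 and Psma7 are named as the ends of a range, and Tap1, Ifng and Ptprc as genes set against Psmb9. Lcp1, Prf1, Lck, Lyz2, Vim, Itgax, Csf3r, Fabp4 and Dsp are the most abundant genes of marker lists. Klra8 and Krt1 are markers at 0, and Krt5 and Krt14 markers under the filter. Other genes are named for a promoter motif, an overlapping exon or shared sequence. DESeq2 1.42.0 and limma 3.58.1, other scalings and filters, leaving out each tumor in turn, and keeping the unnamed rows (chosen after seeing the data) were alternatives. A few results on single genes are not reported here. Correlations used 100000 permutations, exact ones over 8 or 9 tumors, two-sided. Coordinates, the median length of coding transcripts and exon overlaps are from GENCODE vM21 on GRCm38, and promoters from RefSeq. Figures used Python 3.11.15.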

Additional observations from a re-analysis of the deposited data

Results flagged for a closer look

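Among 100 sets of 5 values, 50 measures in each group, 4 had 1 tumor apart from the other 4 by Dixon's criterion, where chance gives about 5. Psme1 in responder 11 stood at 7.77 on the log2 CPM scale against 7.38 to 7.46 in the other responders. The other values are on the log2(CPM + 1) scale. Rps27a in non-responder 1 stood at 9.42 against 9.63 to 9.71 in the other non-responders. Ngly1 in non-responder 6 stood at 4.23 against 4.32 to 4.35. Canx in non-responder 2 stood at 9.60 against 9.69 to 9.72.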

How the results depend on the processing

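No gene was called at an adjusted p of 0.05 in edgeR with DESeq2's size factors, with library size alone, without a filter, with a stricter filter or with limma, and DESeq2's test called 1. The fits that left out 1 tumor called 0 to 10 genes, the 10 without responder 5. In those fits the number of proteasome genes at an unadjusted p under 0.05 was 2 to 8, those higher in responders 0 to 7, and immunoproteasome genes 0 to 5. The lowest counts came without responder 11, where 2 of 48 proteasome genes and 5.51% of all genes had such a p. The 8 came without responder 5, where 14.1% of all genes did. Of all genes, 2.76% were higher in responders at that p without responder 11, and 7.31% without responder 5. The median log2 fold change of the 43 constitutive genes ran from -0.020 (without responder 11) to 0.033 (without non-responder 6). All 5 immunoproteasome genes kept a higher mean in responders under every alternative run. The log2 fold change changed sign on leaving out 1 tumor for Psmb5 (-0.021 to 0.066), Psmb6 (-0.023 to 0.034), Psmb7 (-0.020 to 0.030), Pomp (-0.0010 to 0.073), Ngly1 (-0.011 to 0.074), Uba6 (-0.073 to 0.020), Rps27a (-0.064 to 0.0060), Canx (-0.069 to 0.0026) and Vcp (-0.057 to 0.011), all of them small in every fit. Without the 2 tumors farthest from the median of Psmb9, r with Ifng was 0.652 and with Ptprc 0.707, neither past the threshold, and the cause was not tested. Adding the counts of Gm3375 to Psmb5 (chosen after seeing the data) left the difference of its ratio at 0.16 on the log2 scale. No paired analysis was possible because the groups share no tumor number. The median SE of the log2 fold change was 0.051 for the constitutive genes and 0.10 for the immunoproteasome genes, about as large for the latter as the smallest of their differences without responder 11.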
